A study of Mus musculus with 12 samples.

Results

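The saline prefrontal cortex is described here as a small RNA landscape, from the 3 SS libraries (replicates 12, 13 and 14) among the 12 libraries of the series. The libraries were chosen by their group label, and nothing measured entered the choice. The study asked how methionine and cocaine act on small RNAs of the medial prefrontal cortex (mPFC) in mice that went through conditioned place preference (CPP), a test of the preference for a place paired with a drug. SS mice were adult male C57BL/6 animals that received saline in place of both agents, and each library was made from the RNA of a pool of animals. The cortex was collected on day 10, 2 h past the end of CPP testing. Libraries hold RNA between 18 and 30 nt, read as single ends of 50 nt. No treatment is compared.

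A miRNA gene is transcribed as a long RNA that is cut to a hairpin and then to a short duplex, and 1 strand of the duplex is kept by an Argonaute protein. The strand from the left side of the hairpin is named 5p and the strand from the right side 3p. The kept strand finds its target mRNAs mainly through its seed, the bases 2 to 8 from its 5′ end, so miRNAs with the same seed form a family that can act on overlapping targets. In adult cortex, miR-124 and miR-9 are known from neurons and their development, and the let-7 family from differentiated cells in general.

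Mature miRNAs drew 5218635 counts in replicate 12, 6817816 in replicate 13 and 7255096 in replicate 14. The counts are reads on each small RNA as deposited, and they sum to the total stated for each library. A share is the count divided by the total named beside it, and it needs no scaling between libraries. At these depths 3 counts correspond to 0.365, 0.299 and 0.271 TPM (a count scaled to a library total that is the same for all) in replicates 12, 13 and 14, and exact intervals on a share cover counting error only. Every pair of libraries differed by more than counting error. Over 490 mature miRNAs the chi-square statistic per degree of freedom was 302 for replicates 12 and 13, 1351 for replicates 13 and 14 and 1569 for replicates 12 and 14.

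The libraries stand apart in 2 ways that the results below carry. Replicate 14 held much less miR-124-3p than the others, and replicate 12 had lower correlations with the others in the miRNA precursor families. The precursor families hold counts placed on a hairpin family and not on a mature miRNA. How reads were divided between mature miRNAs and precursor families is not known from the sources used here. Across 67 precursor families with at least 10 counts in every library, the Pearson correlation of log2 shares was 0.980 between replicates 13 and 14. It was 0.919 between replicates 12 and 13 and 0.928 between replicates 12 and 14. By the chi-square statistic per degree of freedom replicate 12 was not apart, with 1449 for replicates 13 and 14, 1410 for 12 and 14 and 1779 for 12 and 13. Across the 490 mature miRNAs the same correlation was 0.982 for replicates 12 and 13, 0.984 for replicates 13 and 14 and 0.972 for replicates 12 and 14. These correlations are across miRNAs, which are not independent, and carry no p. Values are therefore given for each library or as mean ± SD over the 3 libraries. With 3 libraries an exact paired permutation test cannot go below p = 0.25, so no test was run between miRNAs.

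Mature miRNAs took most of every library. Their share of all counts was 63.4% in replicate 12, 67.9% in replicate 13 and 65.5% in replicate 14, with a mean of 65.6% ± 2.24 (SD, n = 3). The exact 95% interval in replicate 12 was 63.4% to 63.5%, so the libraries differed by more than counting error. The mean was 66.7% without replicate 12. Precursor families followed with 11.7% ± 0.585, and mature and precursor families together held 74.9%, 80.3% and 76.8% of all counts in replicates 12, 13 and 14.

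Reads outside the named small RNAs made up the next block. Exons held 9.28% ± 1.51, introns 4.47% ± 0.247, intergenic regions 4.06% ± 1.07 and repeats 3.74% ± 0.652 of all counts. Together these positions held 24.0% in replicate 12, 18.7% in replicate 13 and 21.9% in replicate 14. Replicate 13 thus had the highest miRNA share and the lowest share on exons and intergenic regions. The piRNAs held 0.352% ± 0.0499, and the tRNA, rRNA, snRNA, snoRNA and other Rfam classes together held 0.747% ± 0.174.

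**Figure D1:**
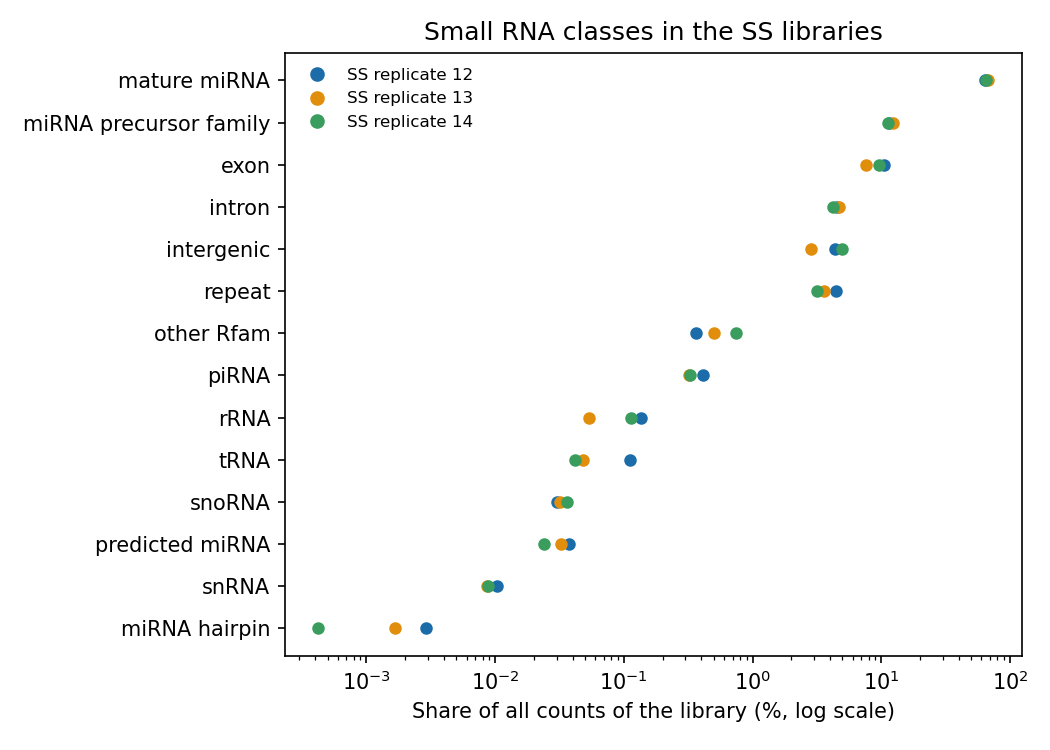
Share of all counts of the library (%, log scale) in each small RNA class, 1 point for each SS replicate. Mature miRNAs lie at 63.4% to 67.9% in the 3 libraries, and intergenic regions at 2.86% to 4.93%.

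Of 1146 mature miRNAs with at least 1 count in any SS library, 792 were listed in all 3 and 490 had at least 10 counts in every library. Another 202 were listed in 1 library only, where the highest of them reached 18 counts. The number listed was 939, 955 and 988 in replicates 12, 13 and 14. The counts were concentrated on few miRNAs: 6 miRNAs in replicates 12 and 13 and 9 in replicate 14 held 50% of mature counts. The 10 most abundant by mean share held 59.5% ± 4.13 of mature counts, and the 100 most abundant held 97.0% ± 0.265.

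miR-124-3p, a miRNA that neurons hold in large amounts, came first in every library. Its share of mature counts was 26.1% in replicate 12, 26.0% in replicate 13 and 10.7% in replicate 14, and the mean was 20.9% ± 8.82 (SD, n = 3). The mean without replicate 14 was 26.0%. In TPM the 3 values were 165273, 176336 and 70274, so replicate 14 stood apart on that scale too. The exact interval was 26.0% to 26.1% in replicate 12 and 10.7% to 10.8% in replicate 14. The other miRNAs of the neuron list summed below held 16.9%, 16.5% and 19.9% of mature counts in replicates 12, 13 and 14. The cause of the low miR-124-3p value was not tested. In bulk tissue, fewer cells of a type and less RNA per cell cannot be told apart. The reads on the mir-124 precursor family differed less, with 53058, 46123 and 42283 TPM in replicates 12, 13 and 14.

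miR-9-5p, which acts in neural progenitors and neurons, was at rank 2 in every library with 7.69%, 7.74% and 9.41% of mature counts in replicates 12, 13 and 14. miR-26a-5p was at rank 3 with 5.31%, 6.37% and 7.08%. let-7c-5p was at rank 4 with 4.40%, 5.27% and 6.83%, and miR-99a-5p at rank 5 with 3.98%, 3.76% and 4.82%. The first 5 places held the same miRNA in every library, although the ranges of places 3 to 5 overlapped between libraries. For these 4 miRNAs the highest share was that of replicate 14, where miR-124-3p was low.

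The next places went to miR-128-3p, known to dampen neuronal excitability, with 3.20%, 3.14% and 4.34%, and to miR-181a-5p with 3.29%, 3.31% and 4.03%. miR-128-3p was the higher of the pair in 1 of 3 libraries, so their order is not settled. miR-138-5p, which is enriched at synapses, had 3.21%, 2.85% and 2.56%, and was highest in replicate 12. let-7a-5p had a mean of 2.45% ± 0.163, let-7b-5p 1.91% ± 0.365, let-7f-5p 1.71% ± 0.0938, let-7g-5p 1.67% ± 0.221 and let-7i-5p 1.52% ± 0.320. These let-7 neighbours traded places between libraries, except that let-7a-5p was above let-7b-5p and let-7g-5p above let-7i-5p in all 3.

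Places 14 to 20 held miR-127-3p (1.48% ± 0.199), miR-218-5p (1.42% ± 0.282), miR-191-5p (1.41% ± 0.202), let-7d-5p (1.38% ± 0.231), miR-24-3p (1.37% ± 0.999), let-7k (1.19% ± 0.218) and miR-126a-3p (0.995% ± 0.0450). The spread of miR-24-3p was far wider than that of its neighbours. Its share was 0.440% in replicate 12, 1.25% in replicate 13 and 2.43% in replicate 14, which placed it at ranks 40, 18 and 10. Of the 10 most abundant miRNAs of each library, 9 were shared by all 3, and the sets together named 12.

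The share of miR-124-3p is part of the denominator of every other share. Over mature counts other than miR-124-3p, a denominator chosen after seeing the data, miR-9-5p stood at 10.4%, 10.5% and 10.5% in replicates 12, 13 and 14. The ratio of the highest to the lowest share was then 1.01 for miR-9-5p, against 1.22 over all mature counts, and 1.02 for miR-181a-5p, against 1.23. For miR-138-5p it was larger, at 1.51 against 1.25. For miR-24-3p it was 4.57 against 5.52. Over the 100 most abundant miRNAs the median ratio of the highest to the lowest share was 1.41, and it was 1.32 over the other 99 once miR-124-3p was left out. The number of the 100 that were highest in replicate 14 was 58 with miR-124-3p in the denominator and 35 of 99 without it.

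**Figure D2:**
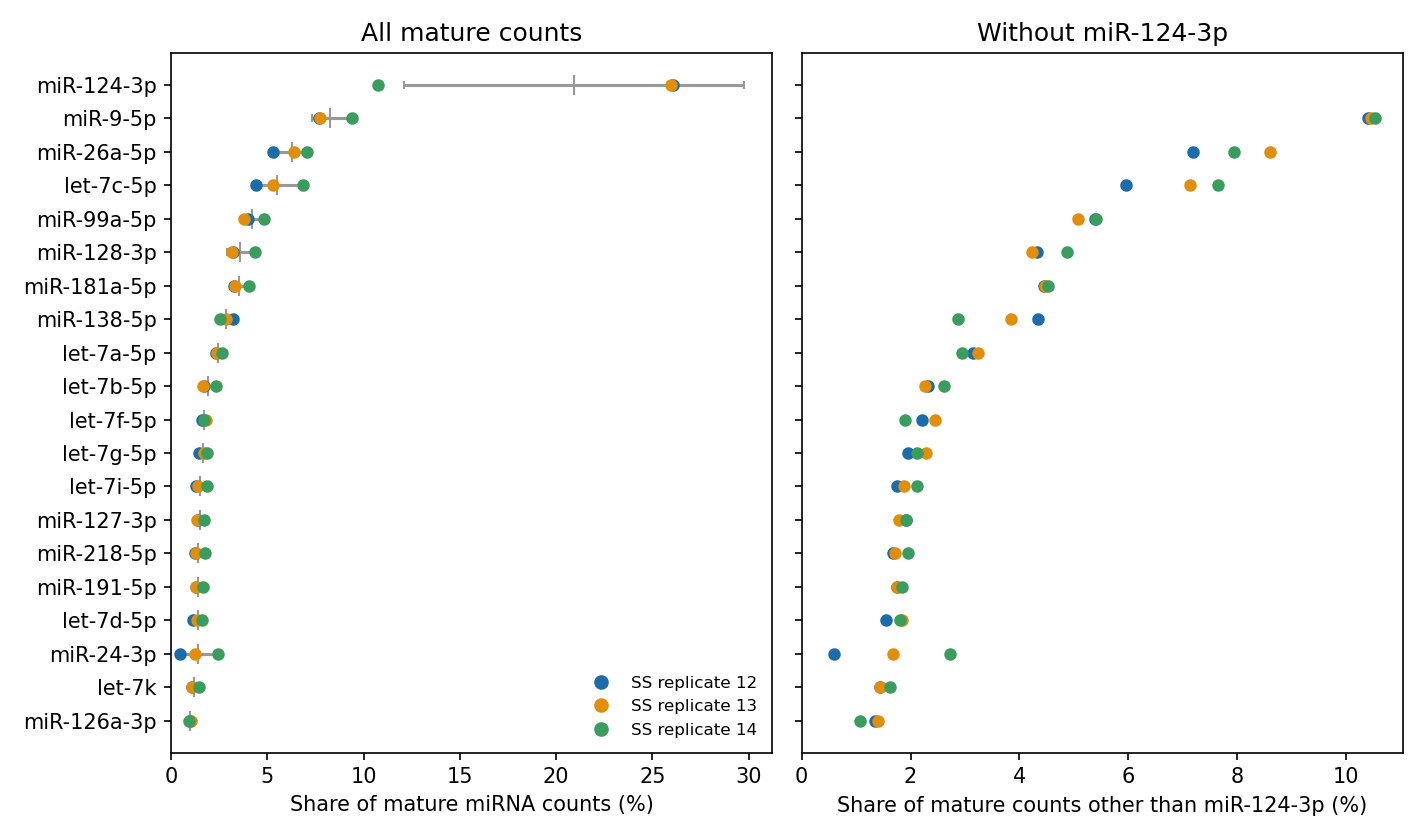
Share of mature miRNA counts (%) of the 20 most abundant mature miRNAs on the left, with points for the 3 SS replicates and grey marks for mean ± SD, and the same over mature counts other than miR-124-3p on the right. miR-124-3p is at 10.7% in replicate 14 against 26.1% and 26.0% in the others, and the points of miR-9-5p and miR-181a-5p fall together on the right while those of miR-24-3p do not.

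Mature miRNAs were then summed by seed. RefSeq sequences of build GRCm38.p6 (mm10) were matched by name for 961 of the 1146 listed miRNAs and for 420 of the 490 detected ones. They carried 70.0%, 70.5% and 85.1% of mature counts in replicates 12, 13 and 14. miR-124-3p, miR-328-3p, miR-151-5p, miR-143-3p and miR-219a-2-3p were among those not matched. The seed shared by the let-7 family led the rest, with 15.6%, 17.4% and 21.1% of mature counts in replicates 12, 13 and 14 and a mean of 18.0% ± 2.79. In replicate 14 the let-7 seed thus held more counts than miR-124-3p, and in the other libraries it held fewer. Over mature counts other than miR-124-3p its share was 21.1%, 23.5% and 23.6%.

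Of the 11 listed miRNAs with the let-7 seed, 10 were detected. let-7c-5p made up 30.3% ± 2.12 of the family's counts, let-7a-5p 13.7% ± 1.18, let-7b-5p 10.5% ± 0.806 and miR-98-5p 0.661% ± 0.0211. Reads of members that differ by a base can be shared between them, so the division within the family is less certain than its sum. The sequences are printed to show how close the members are, in lower case with the seed in capitals.
let-7c-5p: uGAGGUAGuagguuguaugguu
let-7a-5p: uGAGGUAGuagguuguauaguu
let-7b-5p: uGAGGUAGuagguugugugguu
let-7f-5p: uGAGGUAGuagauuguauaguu
let-7g-5p: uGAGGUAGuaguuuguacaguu
let-7i-5p: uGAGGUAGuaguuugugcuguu
let-7d-5p: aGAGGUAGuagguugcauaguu
let-7k: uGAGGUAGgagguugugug
let-7e-5p: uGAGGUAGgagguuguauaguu
miR-98-5p: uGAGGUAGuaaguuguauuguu

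The next 9 seeds each had 1 to 4 detected miRNAs. The miR-9-5p seed held 8.28% ± 0.979 of mature counts, the miR-26 seed 6.43% ± 0.889 and the seed of miR-99 and miR-100 6.00% ± 0.630. The miR-181 seed followed with 4.53% ± 0.614, then those of miR-128-3p (3.56% ± 0.681) and miR-138-5p (2.88% ± 0.325). miR-127-3p (1.48%), miR-218-5p (1.42%) and miR-191-5p (1.41%) completed the first 10 seeds. Together these 10 seeds held 49.5%, 51.1% and 61.6% of mature counts in replicates 12, 13 and 14. They are shown grouped by seed, because the families with several members differ only outside it.
miR-9-5p: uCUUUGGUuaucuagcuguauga
miR-26a-5p: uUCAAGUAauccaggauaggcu
miR-26b-5p: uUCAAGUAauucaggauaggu
miR-99a-5p: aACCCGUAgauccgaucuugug
miR-100-5p: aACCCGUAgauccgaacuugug
miR-99b-5p: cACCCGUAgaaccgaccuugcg
miR-181a-5p: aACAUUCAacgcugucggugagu
miR-181b-5p: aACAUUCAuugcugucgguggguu
miR-181c-5p: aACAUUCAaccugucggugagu
miR-181d-5p: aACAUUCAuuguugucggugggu
miR-128-3p: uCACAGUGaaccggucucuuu
miR-138-5p: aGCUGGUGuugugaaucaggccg
miR-127-3p: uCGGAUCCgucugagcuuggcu
miR-218-5p: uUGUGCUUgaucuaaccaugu
miR-191-5p: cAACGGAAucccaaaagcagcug

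Several of these miRNAs have more than 1 gene, and mature counts do not tell the copies apart. On GRCm38, miR-9-5p lies at chr3:88215613-88215635, chr7:79505279-79505301 and chr13:83738821-83738843, within the noncoding transcripts Gm3764, Mir9-3hg and C130071C03Rik. miR-26a-5p lies at chr9:119031811-119031832 and chr10:126995543-126995564 in introns of Ctdspl and Ctdsp2, which encode related phosphatases. miR-128-3p lies at chr1:128202404-128202424 and chr9:112118644-112118664 in introns of R3hdm1 and Arpp21. miR-218-5p lies at chr5:48223966-48223986 and chr11:35616840-35616860 in introns of Slit2 and Slit3, genes of axon guidance. let-7c-5p has a copy at chr16:77599672-77599693 in an intron of Mir99ahg, where miR-99a-5p also lies at chr16:77598940-77598961, and another at chr15:85706616-85706637 in an exon of Lncppara.

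The 5p arm held 55.5%, 56.4% and 67.4% of mature counts in replicates 12, 13 and 14, a mean of 59.8% ± 6.62. The 3p arm held 42.9%, 42.1% and 30.7%, and names without an arm the rest. Replicate 14 stood apart here too, and miR-124-3p is a 3p miRNA: over mature counts other than miR-124-3p the 5p share was 75.1%, 76.2% and 75.5%. By number of miRNAs rather than counts the arms were close, with 226 detected 5p and 246 detected 3p miRNAs.

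Arm use was then read hairpin by hairpin as the 5p share of 5p plus 3p counts. Names that differ only in a copy number, as in miR-219a-2-3p, were summed, so a hairpin here can stand for several gene copies. Of 396 hairpins with both arms listed, 277 had at least 10 counts in every library. In 97 of these the 5p arm held over 90% in every library (5p dominant), and in 79 the 3p arm did (3p dominant). In 21 of the 277 the arm above 50% differed between libraries, and the median range of the 5p share was 2.63 percentage points. Among the 100 most abundant hairpins, 56 were 5p dominant and 29 3p dominant, the median range was 0.318 points, and 7 had a range over 10 points. A range in points is bound to be small where a share lies near 0 or 100%, so it does not measure how steady the minor arm was.

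The most abundant 5p dominant hairpins were miR-9, miR-26a, let-7c, miR-99a and miR-181a. miR-9 was the least one-sided of them, with 95.1%, 95.2% and 96.4% on the 5p arm in replicates 12, 13 and 14, and its other arm, miR-9-3p, is an abundant miRNA of its own at rank 42. In miR-26a the mean 5p share was 99.991%, in let-7c 99.981%, in miR-99a 99.858% and in miR-181a 99.654%. The most abundant 3p dominant hairpins were miR-124, miR-128, miR-127, miR-24 and miR-126a. In miR-124 the 5p arm held 127, 121 and 184 counts against 1359981, 1770483 and 778446 on the 3p arm in replicates 12, 13 and 14. The 5p share was 0.426% ± 0.0299 in miR-128 and 4.67% ± 0.935 in miR-126a, both low in every library.

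Few abundant hairpins used both arms alike. miR-323 was the only balanced hairpin (40% to 60% on each arm in every library) among the 100 most abundant, with 46.7%, 43.6% and 41.9% on the 5p arm in replicates 12, 13 and 14. The dominant arm differed between libraries in 2 of these 100. miR-340 had 62.3%, 60.9% and 45.8% on the 5p arm. miR-219a, known from myelinating oligodendrocytes, had 45.8%, 33.5% and 89.6%. Its 3p counts, most of them miR-219a-2-3p, were 5718, 6192 and 310, while its 5p counts were 4831, 3126 and 2661, so the 3p arm was low in replicate 14. The name miR-219a-5p carries no copy number, so its counts may come from several gene copies.

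miR-132 and miR-212, neighbours on chromosome 11 that neuronal activity is known to induce, were looked at after their values were seen. The 5p share of miR-132 was 92.8%, 91.8% and 77.5% in replicates 12, 13 and 14, with 2088, 2843 and 14579 counts on miR-132-3p. The 5p share of miR-212 was 3.94%, 29.1% and 7.26%, with 570, 8415 and 2306 counts on miR-212-5p. Replicate 14 was high for miR-132-3p and replicate 13 for miR-212-5p. A further 4187, 22420 and 32399 counts lay on the mir-132 precursor family, where the arm is not given, so the arm shares of this family rest on part of its reads.

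**Figure D3:**
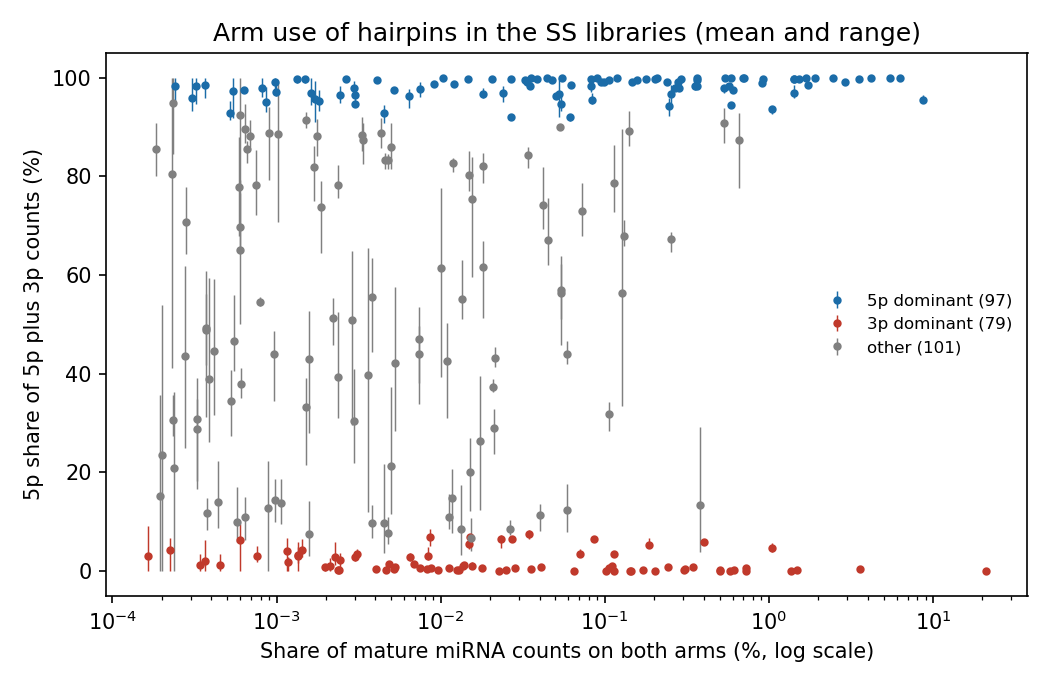
5p share of 5p plus 3p counts (%) of 277 hairpins against the share of mature counts on both arms (%, log scale), with the mean as a point and the range over the 3 SS libraries as a line. 97 hairpins lie at the top (5p dominant) and 79 at the bottom (3p dominant), and the long lines belong mostly to hairpins of low abundance.

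Mature sequences also differed in composition between the abundant and the average miRNA. A first base of U was found in 43.1% of the 420 detected miRNAs with a sequence. Shares by counts are over all listed miRNAs with a sequence, detected or not. Those starting with U held 66.9%, 68.9% and 70.5% of these counts in replicates 12, 13 and 14. A first base of G was found in 9.52% of the detected miRNAs and 0.773% ± 0.179 of the counts. In 123 hairpins with a dominant arm and both sequences, the dominant arm began with U in 72 and the other arm in 18. The length of 22 nt held 58.1% ± 0.888 of the counts and 23 nt held 25.5% ± 0.929. The mean GC content was 44.6% by counts and 49.5% with each miRNA counted once. The unmatched miRNAs, miR-124-3p among them, are outside these values.

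Part of the reads of many families lay on precursor families of Rfam, a database of RNA families, and not on mature miRNAs. The rule that divided the reads is not known, so the shares and ranks below may depend on it. By the family named for each miRNA in the files, 117 precursor families were matched to mature families, and they held over 99% of precursor counts (99.9%, 99.99% and 99.995% in replicates 12, 13 and 14). The mir-29 family, known from astrocytes and mature neurons, had 80.8%, 83.8% and 79.4% of its mature plus precursor counts on the precursor family. It ranked 31 by mature counts and 9 once precursor counts were added. mir-221 had 49.2%, 48.9% and 52.2% there, and mir-24 32.5%, 33.9% and 30.0%. These shares were similar in the 3 libraries.

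Among the families leading by mature counts, the precursor share was 22.9%, 24.8% and 19.5% in mir-9, 19.7%, 21.3% and 19.6% in mir-181, and 12.9%, 11.6% and 11.5% in mir-26. In mir-124 it was 24.3%, 20.7% and 37.6%, highest in replicate 14. In let-7 it was 0.658%, 8.00% and 0.876%, with 103510 precursor counts in replicate 13 against 5437 and 13592. With precursor counts added, mir-124 held 29.1%, 27.7% and 14.7% of mature plus precursor counts and let-7 13.4%, 16.1% and 18.3%, so let-7 still led in replicate 14 and mir-124 in the other 2 libraries.

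**Figure D4:**
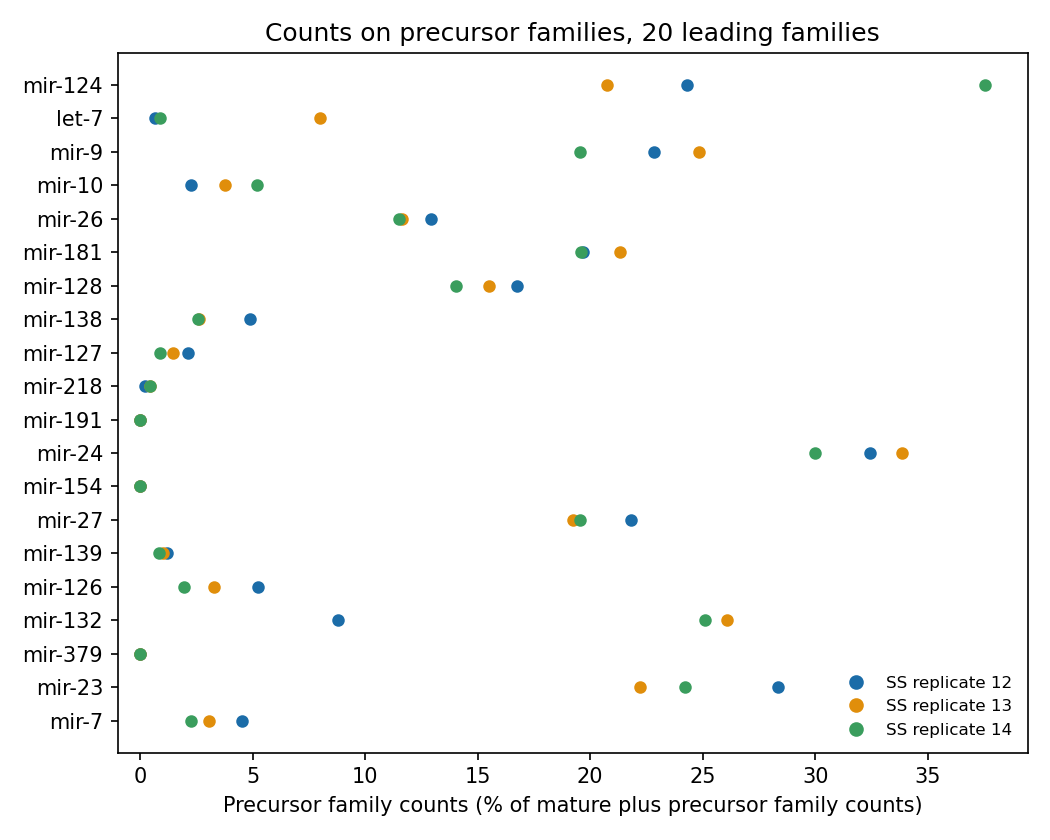
Precursor family counts as a share of mature plus precursor family counts (%) for the 20 families with the highest share of mature counts, 1 point for each SS replicate. mir-124 reaches 37.6% in replicate 14, let-7 8.00% in replicate 13, and mir-191 is at 0 in all 3 libraries.

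Among the 100 most abundant miRNAs, the 5 whose share differed most between libraries were miR-219a-2-3p, miR-212-5p, miR-3074-5p, miR-24-3p and miR-21a-5p. The ratio of the highest to the lowest share was 25.9, 11.3, 6.32, 5.52 and 5.44. miR-21a-5p, a miRNA of glia and of injury, had 1.16%, 0.213% and 0.240% of mature counts in replicates 12, 13 and 14, so replicate 12 was high. miR-219a-2-3p had 0.110%, 0.0908% and 0.00423%, and replicate 14 was low.

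miR-24-3p and miR-3074-5p had the same order of libraries. Their loci overlap on opposite strands, at chr13:63301251-63301272 (plus) and chr13:63301249-63301270 (minus), and again at chr8:84208875-84208896 and chr8:84208873-84208894. In TPM miR-24-3p had 2788, 8469 and 15891 in replicates 12, 13 and 14, and miR-3074-5p had 414, 1810 and 2703. The mir-24 precursor family had 1341, 4341 and 6806. All 3 were lowest in replicate 12 and highest in replicate 14. miR-23a-3p and miR-27a-3p, whose genes neighbour Mir24-2, differed by 1.45 and 1.23 times between libraries on the same scale. Whether reads were counted by strand is not known from the sources used here, so the level of miR-3074-5p and its variation beside miR-24-3p are uncertain. The sequences are complementary over 20 of 22 nt, and the seed is in capitals.
miR-24-3p: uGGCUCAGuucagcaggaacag
miR-3074-5p: gUUCCUGCugaacugagccagu

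Lists of miRNAs known from cell types and tissues were summed to describe the tissue. The lists were chosen with earlier results of these data known, so they are no independent check of the tissue label. They are lists for bulk RNA and do not count cells. All 14 of the neuron list were detected, with 43.0%, 42.5% and 30.7% of mature counts in replicates 12, 13 and 14, led by miR-124-3p. The other members held 16.9%, 16.5% and 19.9% of all mature counts, and 22.9%, 22.3% and 22.3% of mature counts other than miR-124-3p. The endothelial list (2 of 2 detected) held 1.04% ± 0.0409, led by miR-126a-3p, and the vascular smooth muscle list (2 of 2) held 0.510% ± 0.0181, led by miR-143-3p. Over mature counts other than miR-124-3p replicate 14 was lowest in both, with 1.41%, 1.47% and 1.13% for the endothelial list and 0.672%, 0.717% and 0.563% for the smooth muscle list. Without their leading members both lists were lowest in replicate 12. They then held 0.0398%, 0.0489% and 0.0570% (endothelial) and 0.00353%, 0.00380% and 0.00404% (smooth muscle) of all mature counts.

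By the ratio of the highest to the lowest share, the glial and leukocyte lists varied more than the neuron and vascular lists. The astroglial list (5 of 5) held 1.69%, 0.573% and 0.735% in replicates 12, 13 and 14. miR-21a-5p was its highest member in replicate 12, where it alone gave 1.16%, and miR-29a-3p in replicates 13 and 14. Without miR-21a-5p the astroglial list varied less, with 0.526%, 0.359% and 0.495%. The mir-29 reads on the precursor family, 107480, 127981 and 139053 counts, are outside this sum. The oligodendrocyte list (4 of 4) held 0.233%, 0.155% and 0.0613%, with miR-219a-2-3p highest in replicates 12 and 13 and miR-219a-5p in replicate 14. Without miR-219a-2-3p it held 0.124%, 0.0641% and 0.0571%, while miR-338-3p had 0.0297%, 0.0169% and 0.0189%. miR-338-5p had 0.00144%, 0.00133% and 0.00149%, so both miR-338 members were higher in replicate 14 than in replicate 13. The list of microglia and leukocytes (6 of 6) held 0.341%, 0.206% and 0.359%, led by miR-150-5p. Its other members did not all order the libraries alike. Counts were 3294, 5988 and 8683 for miR-146a-5p, 39, 45 and 128 for miR-142a-3p and 246, 33 and 45 for miR-155-5p. miR-223-3p had 37, 49 and 56 counts and miR-142a-5p 25, 29 and 35. Over mature counts other than miR-124-3p this list held 0.461%, 0.279% and 0.402%. Without miR-150-5p it held 0.0698%, 0.0901% and 0.123% of all mature counts, lowest in replicate 12, so the order of libraries in this list depends on 1 member. The part of tissue composition in the differences between libraries was not tested.

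Lists from blood and from tissue near the cortex were summed next. The red blood cell list (4 of 5 detected, miR-144-5p under the minimum) held 0.289% ± 0.0603, led by miR-451a. Nearly all of this sum was miR-451a, and the mean without it was 0.00395%. The list of choroid plexus and ciliated cells (7 of 8, miR-448-3p under the minimum) held 0.302% ± 0.0503, led by miR-204-5p. Its mean was 0.00994% without miR-204-5p. The pituitary and endocrine list (2 of 2) held 0.563% ± 0.164, led by miR-7a-5p, which neurons also make. Leaving out miR-7a-5p gave a mean of 0.00870%. The epithelial and olfactory list (4 of 5, miR-200c-3p under the minimum) held 0.0180% ± 0.00173, led by miR-429-3p.

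Lists of distant tissues held small shares, although the liver and gut list held more than the epithelial and olfactory list (0.0180%). The liver and gut list (3 of 4, miR-215-5p under the minimum) held 0.0536% ± 0.00780, led by miR-194-5p. The striated muscle list (3 of 7) held 0.0118% ± 0.000544, led by miR-499-5p, with miR-133b-3p, miR-206-3p, miR-208a-3p and miR-208b-3p under the minimum. The caudal Hox list (2 of 4, miR-196a-5p and miR-196b-5p under the minimum) held 0.00365% ± 0.00199, led by miR-10a-5p, and the sensory list (3 of 3) 0.00358% ± 0.000917, led by miR-183-5p. The testis list had 4, 2 and 4 counts in all, of which miR-741-3p had 2, 1 and 1, with none of 9 members detected. The embryonic stem cell list had 1, 8 and 8 counts, of which miR-302d-3p had 1, 3 and 4, with none of 10 detected.

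Among the other classes, piRNAs are small RNAs that silence transposons in the germ line. They had 33718, 32275 and 36053 counts in replicates 12, 13 and 14, over 406 piRNAs. Known piRNAs held 0.222% ± 0.0224 of all counts and predicted ones 0.130% ± 0.0309. The piRNA mmu_piR_000273 alone held 34.5%, 40.2% and 41.8% of piRNA counts. The predicted novel_pir186, placed by the authors on chr11:57559807-57559926 in an ERV1 repeat, held 7.17% ± 1.91, and mmu_piR_000935 3.08%, 7.96% and 5.58%.

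Of 35 predicted miRNAs, 21 were listed in all 3 libraries. The lowest count listed for a predicted miRNA was 10, so one that is not listed may still have had reads. Most counts of predicted miRNAs were on novel_mir1 at chr13:23500525-23500594 (minus strand), with 73.1%, 74.0% and 73.5%. GENCODE M21 lists no gene there. novel_mir8 held 3.03%, 9.51% and 2.04%, high in replicate 13, and novel_mir79 2.13% ± 0.534. Of the precursor families, mir-124 held 40.3% ± 5.05 of the counts, mir-9 13.9% ± 0.783 and mir-29 10.9% ± 0.559. The few reads typed as hairpins (238, 168 and 47) lay mostly on miR-187-5p in replicates 12 and 13 (185 and 135 counts), which had 1 count in replicate 14. miR-1224-5p had 7, 0 and 20 counts and miR-328-5p 10, 14 and 6. The hairpin type carries names of mature miRNAs, and what its counts hold is not known from the sources used here.

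Y RNA, a small RNA bound by the Ro protein, led the other Rfam families with 2403, 4181 and 6826 TPM in replicates 12, 13 and 14, and replicate 14 was highest. The family of transfer-messenger RNA, a bacterial RNA, had 942, 422 and 456 TPM, and the MALAT1-associated RNA 62.1, 182 and 30.2. tRNA had 1115, 481 and 418 TPM, and replicate 12 was highest. Among rRNAs the small subunit (43.6% ± 5.73), the 5.8S (33.8% ± 16.0) and the large subunit (18.0%, 12.8% and 5.58%) led, and 5.8S rRNA was high in replicate 14 with 551 TPM against 226 and 195. Selenocysteine tRNA had at most 3 counts in a library.

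Spliceosomal and nucleolar RNAs were scarce. Among snRNAs U6 held 75.9% ± 6.67 of the counts, U2 15.3%, 13.1% and 6.07% and U1 9.66%, 3.47% and 2.06% in replicates 12, 13 and 14, so U1 was highest in replicate 12 and U2 lowest in replicate 14. Among snoRNAs SNORD115, which is made from the imprinted Prader-Willi region in neurons, held 22.1%, 27.1% and 28.7%. SNORD66 held 6.87%, 6.37% and 1.09%, low in replicate 14, and SNORD74 4.31% ± 1.45.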

How the data were processed

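The authors filtered the reads for quality, adapters and length and deposited, for each library, the count of reads on each small RNA (unit: counts), its class and a TPM value, scaled to the same total for every library and not divided by length. Per the labels, Bowtie and mm10 were used. The paper's methods also name AASRA, and the strand setting of the counting is not given in the sources used here. The deposited TPM equalled the count so scaled within 0.005. Shares, arm use, seed sums and list sums were computed from the counts with Python 3.11.15, pandas 2.3.3 and scipy 1.17.1, with a minimum of 10 counts in every library for a detected miRNA or a hairpin. edgeR 4.0.16 and DESeq2 1.42.0 scaling served as alternatives, and steps were tested on simulated data. Loci and sequences are RefSeq GRCm38.p6, and host genes are GENCODE M21. Exact intervals are Clopper-Pearson. Precursor and mature families were matched by the family column of the files. Named miRNAs are the 20 most abundant, any other in the top 10 of 1 library, the 5 most variable of the top 100, leading and mixed hairpins and seeds, the leading and undetected members of lists, and the top 3 of each class. Named beyond this rule are members of the oligodendrocyte and the microglia and leukocyte lists, and miRNAs of passages chosen after values were seen. The precursor comparison, the overlapping pairs and the denominator without miR-124-3p were chosen after their values were seen. The members and lists were chosen with earlier results of these data known.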

Additional observations from a re-analysis of the deposited data

How the results depend on the processing

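The 20 most abundant miRNAs were the same 20 with edgeR's TMM, with DESeq2 size factors and with the TPM column, which scale a whole library by 1 factor and can only change the weight of each library in the mean. Leaving out each replicate in turn kept 19 or 20 of them and gave 64.5% to 66.7% of all counts on mature miRNAs, 497 to 518 detected miRNAs, 58.0% to 61.8% of mature counts on the 10 most abundant, 98 to 102 hairpins with 5p dominant and 81 to 87 with 3p dominant. It also gave 56.0% to 61.9% on 5p arms, 16.5% to 19.2% on the leading seed family, 18.4% to 26.0% on the leading family by name, 67.9% to 69.7% starting with U and 0.323% to 0.368% on piRNAs.

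Several alternatives moved a share by at least 1 SD between libraries, or a number of miRNAs or hairpins by more than 1.5 times. With predicted miRNAs and precursor families added, the miRNA share was 77.4%. With a minimum of 1 count, 792 miRNAs were detected. Over all counts, the 10 most abundant held 39.0%. By name, the leading family was mir-124 with 20.9%, since miR-124-3p had no sequence here. With each miRNA counted once, 43.1% started with U, and with known piRNAs only, piRNAs held 0.222%. Alternatives chosen after seeing the data were the denominator without miR-124-3p, which gave 22.8% for the leading seed family and 75.6% for 5p arms, and arm use in the 153 hairpins whose family has under 1% precursor counts, of which 43 had 5p dominant and 38 had 3p dominant. The last 2 counts come from fewer hairpins. Marker lists moved in 11 of 16 with all counts as denominator and in 12 of 16 without their leading member. With exact name pairs, where gene copies are not summed, 80 hairpins had 5p dominant and 72 had 3p dominant.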

Other observations

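The imprinted Dlk1-Dio3 region on chromosome 12, which carries a large group of maternally expressed miRNAs, was summed after the values were seen. Between the end of Dlk1 and the start of Dio3 (chr12:109463336-110279068) the sequence table holds 61 hairpins, and 104 of their mature miRNAs were listed, of which 82 were detected. They held 4.76%, 4.70% and 5.34% of mature counts in replicates 12, 13 and 14, and 6.44%, 6.35% and 5.98% of mature counts other than miR-124-3p. miR-127-3p led with 1.48% ± 0.199 (SD, n = 3), followed by miR-411-5p with 0.564% ± 0.0405 and miR-369-5p with 0.485% ± 0.0585. The 5p arms held 40.8%, 45.9% and 41.6% of the counts of the region. They held 55.5%, 56.4% and 67.4% of all mature counts, and 75.1%, 76.2% and 75.5% of those other than miR-124-3p. The last comparison is uneven, because the region keeps its own leading 3p miRNA. That miRNA, miR-127-3p, held 1.42%, 1.32% and 1.70% of mature counts, a large part of the region.

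Of the miRNA pairs that overlap on opposite strands, miR-24-3p and miR-3074-5p had the second member with the highest share of mature counts (mean 0.248%), with 14.8%, 21.4% and 17.0% as many counts as the first in replicates 12, 13 and 14. The strand setting of the counting is not known, so these levels are uncertain. miR-126a-3p, which is opposite miR-126b-5p, had 52166, 70709 and 68748 counts against 8, 3 and 5. miR-136-5p and miR-3071-3p were closer, with 439, 577 and 807 counts against 113, 197 and 506, and so were miR-136-3p and miR-3071-5p, with 625, 769 and 968 against 390, 408 and 328.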
